A study of Oryza sativa with 4 samples.

Results

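OsBZIP42 binding sites that lie close together were chosen by the positions of peak centres in its deposited list, as groups of 2 or more peaks in which neighbouring centres on a chromosome are 200 bp or less apart. The rule selected 3689 of 28323 OsBZIP42 peaks, in 1796 groups, and left 24634 single peaks. The peaks come from DAP-seq, in which purified, fragmented genomic DNA is retained on a tagged transcription factor made outside the plant and then sequenced. Genomic DNA of leaves of rice cultivar nipponbare was used with 3 bZIP proteins fused to HALO, a tag that binds covalently to beads, and with HALO-GST as the negative control. The proteins were OsBZIP42 (HBF1 in the labels), OsBZIP69 (FD4) and OsBZIP77 (FD1), and their lists held 28323, 1107 and 2059 peaks, against 194 for HALO-GST. Every protein had 1 library made with naked DNA and protein from a rabbit reticulocyte system. Differences between lists therefore have no replicate check, and the read depth is unknown.

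bZIP proteins grip DNA as dimers, each partner placing a basic helix in the major groove on 1 side of a short palindromic core, in plants typically one built around ACGT. FD-type bZIPs are the DNA-binding part of the florigen activation complex, in which the mobile florigen Hd3a joins them through 14-3-3 proteins at the shoot apex. In rice, FD1 is known as a partner of Hd3a and HBF1 as a bZIP that represses flowering. Plant promoters often hold several bZIP target motifs in a row, and neighbouring copies can be bound by separate dimers. The data below are positions and strengths of binding in the test tube and hold no chromatin, partner protein or tissue.

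Strength is given as signal, the authors' own value per peak, whose unit is not stated. Since the positions of OsBZIP42 peaks chose the groups, everything drawn from the OsBZIP42 list itself is a description without a test. The 95% interval after a share is exact (Clopper-Pearson) and reflects counting error alone.

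Most groups were pairs. There were 1704 groups of 2 centres, 87 of 3 and 5 of 4, and a group spanned 98 bp at the median from its first to its last centre. Clustered peaks had a median signal of 29.8 with quartiles of 18.5 and 57.7, against 23.6 with quartiles of 17.0 and 38.1 for single peaks. The strongest clustered peak had a signal of 509, below the strongest single peak at 736. Clustering was most frequent among strong peaks. It included 38 of the 100 strongest OsBZIP42 peaks (38.0%, 28.5 to 48.3), 310 of the 1000 strongest (31.0%, 28.1 to 34.0), 24.2% of the top decile (22.6 to 25.8) and 9.85% of the lowest decile (8.78 to 11.0). Across the whole list the share was 13.0%. In pairs the stronger member had a median signal of 43.5 and the weaker one of 21.2, so that even the weaker members stood close to the single peaks.

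The spacing within groups was uneven. Of the 1893 gaps between neighbouring members, 871 measured 41 to 100 bp and 884 measured 101 to 200 bp, while 119 measured 21 to 40 bp and 19 measured 20 bp or less. The median gap was 95 bp, with quartiles of 63 and 141 bp. Counts climbed steeply at the short end, with 45 gaps at 21 to 30 bp, 74 at 31 to 40 bp and 146 at 41 to 50 bp. They were highest at 71 to 80 bp, with 162, and nearly as high at 51 to 60 bp, with 155. Beyond that they declined without a break across the 200 bp limit: 69 gaps measured 191 to 200 bp and 64 measured up to 10 bp more than the limit. Counting all pairs of centres and not neighbours alone, 1013 lay 1 to 100 bp apart, 923 at 101 to 200 bp, 626 in the next 100 bp and 425 at 501 to 600 bp. From there the count declined slowly, with 408 at 1001 to 1100 bp and 341 at 1901 to 2000 bp.

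**Figure D1:**
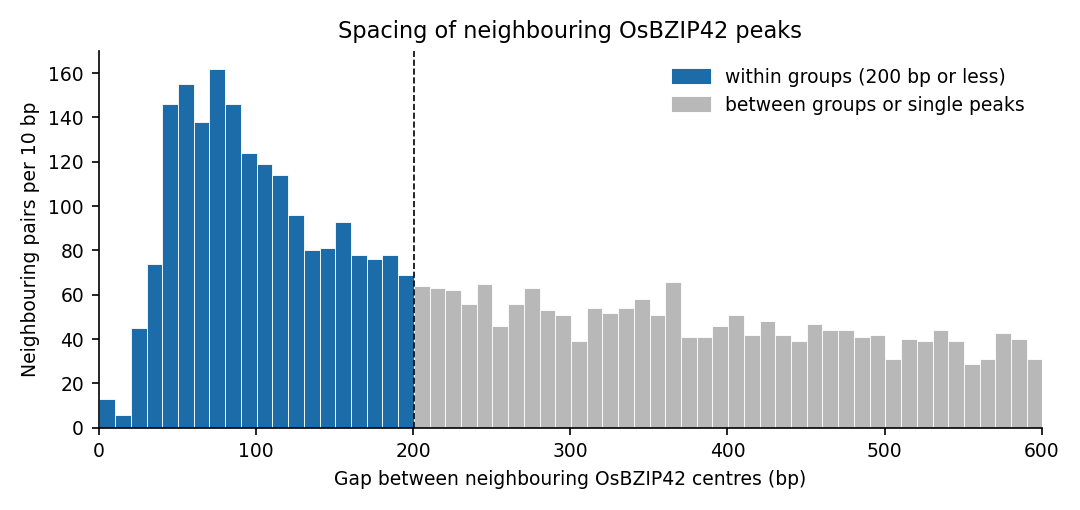
Number of neighbouring OsBZIP42 peaks (y axis, pairs per 10 bp) by the gap between their centres in bp (x axis), in blue within groups and in grey beyond 200 bp, where the dashed line stands. Gaps of 41 to 100 bp are the most frequent, with 162 at 71 to 80 bp, and the counts run on smoothly past the limit.

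Single distances stood out from their neighbours at the short end. Gaps of 51 and 52 bp occurred 25 times each, 41 bp 24 times and 45 bp 22 times, whereas 37 bp occurred 3 times and 44 bp 7 times. Over all pairs of centres there were 19.0 pairs per bp at 40 to 42 bp, 8.50 at 43 to 44 bp, 22.0 at 50 to 52 bp and 11.3 at 56 to 59 bp. The rise and fall was measured for 33 wavelengths from 4 to 20 bp, after a running mean over 21 bp was taken off the counts. For each wavelength the counts were multiplied by a wave of that length and summed. The amplitude is the size of this sum divided by the number of pairs. It serves to compare wavelengths and is smaller than the height of such a wave relative to the mean count. At distances of 25 to 120 bp, which held 1213 pairs of centres, the highest amplitudes were 0.093 at 11.0 bp and 0.085 at 10.5 bp, against a median of 0.032 over all wavelengths. Both wavelengths are close to a turn of the DNA helix, but a link to the helix was not tested. At 121 to 200 bp, 10.5 bp ranked 31 of 33 with 0.016, and beyond 200 bp, up to 400 bp, it ranked 29 with 0.010. At 401 to 600 bp, with 925 pairs, it ranked 4 with 0.045, against a median of 0.030, and the highest amplitude there was 0.064 at 14.5 bp. Among groups of 2, the pairs with summed signal above the median had their highest amplitude at 10.5 bp, 0.123, while those below it had their highest at 16.5 bp, 0.090, and 0.057 at 10.5 bp. Of these 4 ranges the amplitude at 10.5 bp was highest at 25 to 120 bp, but a rank of 4 at 401 to 600 bp shows how far such amplitudes vary. The wave was noticed in these counts before it was measured and has no test.

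The signals of neighbouring peaks were tied to each other. A signal was whole, to within 0.05, for 17610 of 24634 single peaks (71.5%, 70.9 to 72.0), but for only 383 of 3689 clustered peaks (10.4%, 9.42 to 11.4). When the members of a group were added up, the sum was whole in 1368 of 1704 groups of 2 (80.3%, 78.3 to 82.1), 56 of 87 groups of 3 and 3 of 5 groups of 4. An example is a pair on chromosome 1 with signals of 114 and 250, deposited with decimals and summing to exactly 364. The reach of this pattern was read from pairs with no further OsBZIP42 peak within 1500 bp. Of such pairs 1 to 200 bp apart, 1129 of 1233 held a fractional signal, and in 935 of these (82.8%, 80.5 to 85.0) the sum was whole. At 451 to 500 bp the sum was whole in 60 of 72 pairs with a fraction, at 501 to 550 bp in 17 of 30 and at 551 to 1000 bp in 9 of 239 (3.77%, 1.74 to 7.03). Fractional signals thus added up to whole numbers between peaks up to about 550 bp apart, as if whole units had been divided between them, although the unit is not stated. Neighbours in the list do not account for every fraction: of 16651 peaks with no other within 1500 bp, 12881 were whole (77.4%, 76.7 to 78.0). The limit of 200 bp also lies inside this reach, so that a group or a single peak may share with a peak farther off. Over all groups the sum was whole in 1427 of 1796 (79.5%).

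**Figure D2:**
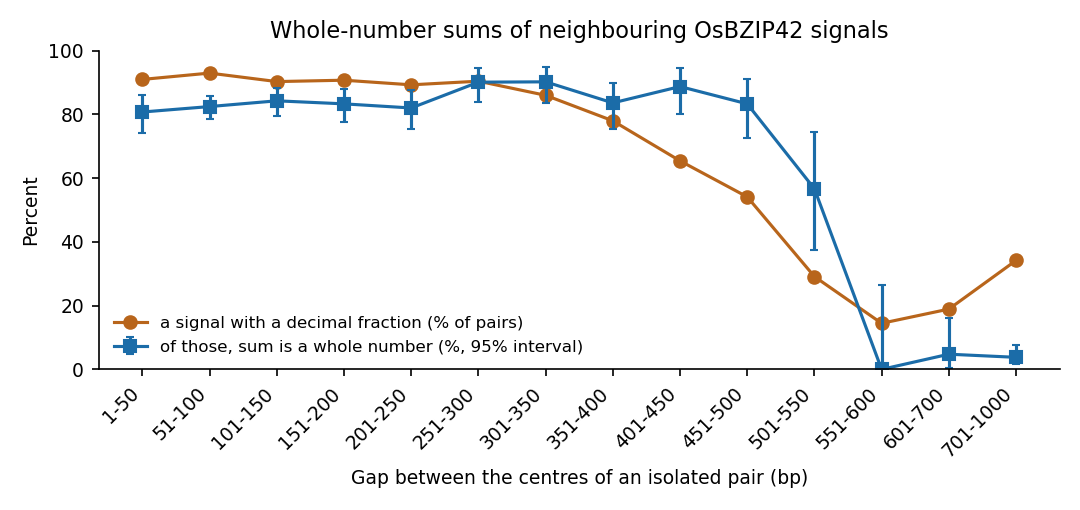
Isolated pairs of OsBZIP42 peaks by the gap between their centres in bp (x axis): the percentage holding a signal with a decimal fraction (orange circles) and, of those, the percentage whose sum is a whole number (blue squares, bars 95% exact intervals). Sums were whole in 82.8% of such pairs 1 to 200 bp apart and in 3.77% at 551 to 1000 bp.

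The median ratio of the signals in groups of 2 was close to that of peaks far apart, while other measures differed. In groups of 2 the weaker signal was 0.582 of the stronger one at the median (0.564 to 0.602), with quartiles of 0.372 and 0.781. For neighbours 551 to 1000 bp apart, past the reach of the whole sums, the median was 0.564 (0.542 to 0.588), and for those 1001 to 2000 bp apart it was 0.570. Very uneven pairs, with a ratio under 0.25, made up 11.3% of groups of 2, against 14.3% of neighbours 551 to 1000 bp apart. The closest pairs were the most even: at gaps of 1 to 30 bp the median ratio was 0.707 (0.610 to 0.798, 58 pairs), while at 151 to 200 bp it was 0.581 (0.536 to 0.625, 349 pairs). Spearman's rho between the signals of the members declined over the same range. It was 0.62 in the 58 pairs with gaps of 1 to 30 bp, 0.51 in 203 at 31 to 50 bp, 0.39 in 657 at 51 to 100 bp, 0.21 in 437 at 101 to 150 bp and 0.17 in 349 at 151 to 200 bp. Beyond the groups it was 0.09 among 1714 neighbours up to 550 bp apart, 0.00 among 1519 at 551 to 1000 bp and 0.08 among 2566 at 1001 to 2000 bp. These rhos run across sites of 1 library, and up to 550 bp across signals that add up to whole numbers. All ratios are bounded by the lowest signal in the list, 9.0. In groups of 3 the middle member was the strongest in 43 of 87, the first in 21 and the last in 23. In pairs with unequal signals the member at the lower coordinate was the stronger in 894 of 1692 (52.8%, 50.4 to 55.2).

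OsBZIP69 and OsBZIP77 supply positions that the rule did not use. A peak is said here to carry the other protein when it is the OsBZIP42 peak nearest to a centre of that protein and lies within 10 bp of it. OsBZIP69 was carried by 239 of 3689 clustered peaks (6.48%, 5.71 to 7.32), against 692 of 24634 single peaks (2.81%, 2.61 to 3.02), where 3.29% of all OsBZIP42 peaks carried it. OsBZIP77 was carried by 340 clustered peaks (9.22%, 8.30 to 10.2), against 1364 single peaks (5.54%, 5.25 to 5.83), where 6.02% of all OsBZIP42 peaks carried it. Both proteins were carried by 156 clustered peaks (4.23%, 3.60 to 4.93), against 497 single peaks (2.02%, 1.85 to 2.2). These shares are not matched for signal, and members of a group are not independent of each other. For peaks that carried both proteins no comparison at equal signal was made. Counted by groups, 223 of 1796 carried OsBZIP69 at some member (12.4%, 10.9 to 14.03) and 326 carried OsBZIP77 (18.2%, 16.4 to 20.01).

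Clustered peaks are stronger, and sharing depends on strength, so the shares were also compared in 20 strata of OsBZIP42 signal. Single peaks weighted to the strata of the clustered ones carried OsBZIP69 in 5.10%, which put clustered peaks 1.38 percentage points higher (0.56 to 2.2). The difference was 3.12 points (1.82 to 4.42) with each list cut to the 50% of peaks with the lowest q-values, and 0.89 points (0.20 to 1.59) with groups joined at 300 bp. For OsBZIP77 the weighted share was 9.17%, and the difference was 0.04 points (-0.93 to 1.01). In the top stratum, from a signal of 106 up, OsBZIP69 was carried by 119 of 412 clustered peaks (28.9%) and 240 of 1005 single peaks (23.9%), and the median signals were 151 and 144. Because the signals of members are tied, the weaker ones were also compared alone. They carried OsBZIP69 in 4.28% of 1704 pairs, against 2.42% of single peaks of the same signal (difference 1.86 points, 0.96 to 2.77), and OsBZIP77 in 7.10%, against 4.84% (2.26 points, 1.13 to 3.39). The stronger members carried OsBZIP69 in 8.45%, against 7.69% of single peaks of the same signal (0.76 points, -0.59 to 2.11), and OsBZIP77 in 11.4%, against 13.4% (-1.93 points, -3.49 to -0.38). With a whole group as the unit and its summed signal as its strength, 12.4% of groups carried OsBZIP69, against 11.9% of single peaks of the same signal (0.48 points, -1.21 to 2.16). For OsBZIP77 these shares were 18.2% and 20.1% (-1.91 points, -3.83 to 0.01). Both intervals include 0, and a group was scored at each of its centres but a single peak at 1. With groups and single peaks that had a further OsBZIP42 peak within 550 bp left out, the differences were 0.57 points for OsBZIP69 (-1.23 to 2.37) and -1.80 points for OsBZIP77 (-3.85 to 0.25), over 1655 groups.

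**Figure D3:**
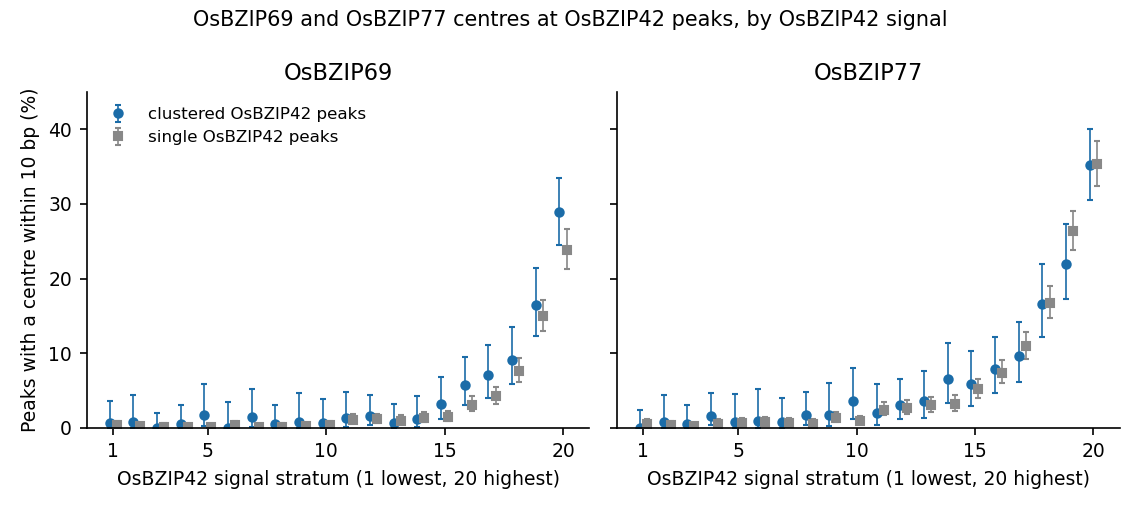
Percentage of OsBZIP42 peaks carrying an OsBZIP69 (left) or OsBZIP77 (right) centre within 10 bp (y axis), by stratum of OsBZIP42 signal (x axis, 1 the lowest of 20), for clustered peaks (blue circles) and single peaks (grey squares), bars 95% exact intervals. Both kinds climb together, to 28.9% and 23.9% for OsBZIP69 in the top stratum.

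The pooled figures hid a dependence on the gap. Close pairs carried the other proteins most often. At gaps of 1 to 50 bp, 64 of 261 pairs carried OsBZIP69 at either member (24.5%, 19.4 to 30.2), against 17.7% of single peaks of the same summed signal (difference 6.85 points, 1.80 to 11.9). At 151 to 200 bp, 25 of 349 did (7.16%, 4.69 to 10.4), against 9.19% (-2.03 points, -4.57 to 0.51). For OsBZIP77 the share was 35.2% at 1 to 50 bp (92 pairs), against 27.6% of single peaks (7.62 points, 2.23 to 13.0), and 11.7% at 151 to 200 bp (41 pairs), against 16.4% (-4.61 points, -7.83 to -1.38). Close pairs were also strong ones, with a median summed signal of 121 at 1 to 50 bp and 55.0 at 151 to 200 bp, and the comparison with single peaks matched them in 20 strata only. A pair was also scored within 10 bp of 2 centres and a single peak within 10 bp of 1. Among centres within 100 bp of a single peak, 119 of 813 for OsBZIP69 and 227 of 1592 for OsBZIP77 lay 11 to 100 bp off and did not count. What this adds to the differences was not tested.

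Where only 1 member of a pair carried the other protein, it was more often the stronger. This held for OsBZIP69 in 129 of 187 pairs (69.0%, 61.8 to 75.5) and for OsBZIP77 in 183 of 292 (62.7%, 56.8 to 68.2). Carrying rose with signal among single peaks too. Weighted to the signals of the stronger members they carried OsBZIP69 in 7.69%, and to those of the weaker members in 2.42%. For OsBZIP77 these shares were 13.4% and 4.84%. Whether the preference within pairs differs from this rise was not tested. The preference depended on how unlike the members were. With a ratio under 0.25 the stronger carried OsBZIP69 in 39 of 42 pairs and OsBZIP77 in 57 of 65, while with a ratio of 0.75 or more it did so in 14 of 25 and in 23 of 47. The preference also depended on the gap. In pairs 101 to 200 bp apart the stronger member carried OsBZIP69 in 61 of 68 cases (89.7%, 79.9 to 95.8) and OsBZIP77 in 82 of 98 (83.7%, 74.8 to 90.4). In pairs 100 bp or less apart it did so in 68 of 119 (57.1%, 47.7 to 66.2) and in 101 of 194 (52.1%, 44.8 to 59.3). The pairs within 50 bp were lowest, at 32 of 63 for OsBZIP69 and 36 of 91 for OsBZIP77 (39.6%, 29.5 to 50.4). The gap mattered among uneven pairs too: with a ratio under 0.5 the stronger carried OsBZIP77 in 56 of 61 pairs beyond 100 bp (91.8%, 81.9 to 97.3) and in 66 of 108 within it (61.1%, 51.3 to 70.3). For OsBZIP69 these counts were 42 of 45 and 42 of 67.

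**Figure D4:**
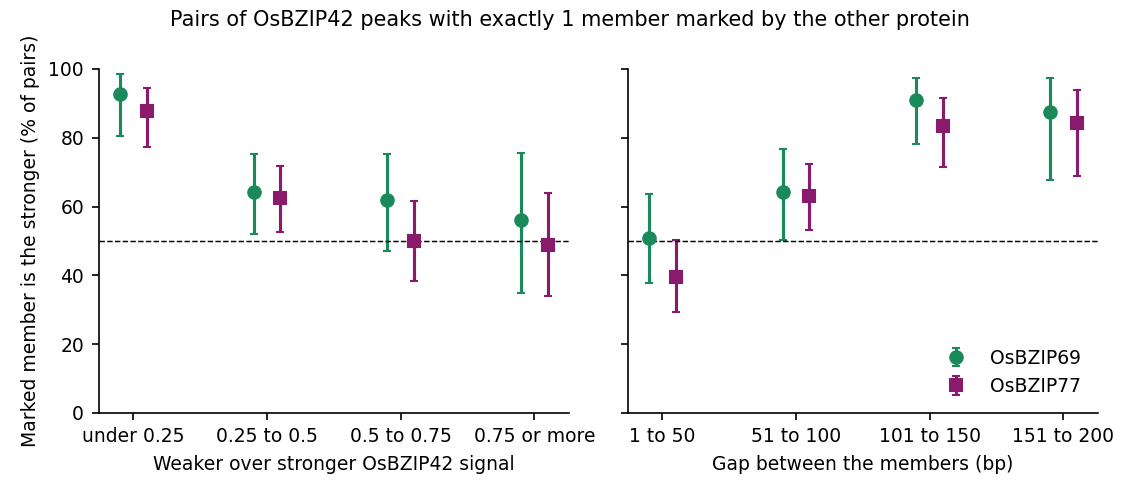
Percentage of OsBZIP42 pairs in which the member carrying OsBZIP69 (green circles) or OsBZIP77 (purple squares) is the stronger (y axis), among pairs with exactly 1 such member, by the ratio of their signals (left) and by their gap in bp (right), bars 95% exact intervals and the dashed line at 50%. The stronger member leads beyond 100 bp, with 89.7% and 83.7%, and not at 50 bp or less.

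OsBZIP69 and OsBZIP77 were mostly carried by the same member. In 140 pairs each of them was carried by exactly 1 member, and in 116 of these it was the same one (82.9%, 75.6 to 88.7). The shared member was the stronger OsBZIP42 peak in 82 pairs and the weaker in 34. The carrying member coincided in 41 of 42 pairs beyond 100 bp (97.6%, 87.4 to 99.9) and in 75 of 98 within it (76.5%, 66.9 to 84.5). The libraries shared the kind of DNA and the calling against a negative control, so they are not independent of each other in every respect.

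The centres of the other proteins sat on the members rather than between them. Of the 267 OsBZIP69 centres within 100 bp of a clustered peak, 240 lay within 10 bp (89.9%, 85.6 to 93.2), against 694 of 813 for single peaks (85.4%, 82.7 to 87.7). For OsBZIP77 it was 340 of 393 (86.5%, 82.7 to 89.7), against 1365 of 1592 (85.7%, 83.9 to 87.4). Among the centres farther off, 11 OsBZIP69 and 16 OsBZIP77 centres lay between the members of a group. The fit was tight: 226 of the 240 OsBZIP69 centres and 318 of the 340 OsBZIP77 centres lay exactly 1 bp from the member, and 0 coincided with it. Against single peaks, 640 and 1275 lay 1 bp off, and 0 and 5 coincided. The 1 bp could fall on either side. On chromosome 3, OsBZIP42 centres at 14236571 and 14236667 faced OsBZIP69 centres at 14236570 and 14236668. Why the centres so rarely coincide is not known and was not tested.

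A few groups carried another protein at more than 1 member, so that the distance between its centres could be set beside that of OsBZIP42. There were 16 groups with 2 members carrying OsBZIP69 and 14 with 2 carrying OsBZIP77. The distance between the OsBZIP69 centres was within 2 bp of that between the OsBZIP42 centres in 15 of 16 groups, over gaps from 40 to 156 bp, and it differed by 4 bp in the other. For OsBZIP77 this was so in 13 of 14 groups, over gaps from 42 to 197 bp, with 3 bp as the largest difference. A tolerance of 10 bp at each end limits these differences in advance, so the match is not an independent repeat of the spacing. The order of the members by signal matched that of OsBZIP42 in 10 of 16 groups for OsBZIP69 and in 10 of 14 for OsBZIP77. These made up most close pairs in the shorter lists. Of 25 gaps of 200 bp or less between neighbouring OsBZIP69 centres, 16 lay between such members and 9 did not, and of 26 between OsBZIP77 centres, 14 did and 12 did not. The gaps of more than 20 bp had a median of 87 bp in the OsBZIP69 list (22 gaps) and 98 bp in the OsBZIP77 list (25 gaps).

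In 6 groups, 2 members carried both proteins, and the 5 with the highest summed OsBZIP42 signal are given. On chromosome 3, from 14236471 to 14236767, the members 96 bp apart had OsBZIP42 signals of 299 and 73.4. OsBZIP69 had 39.2 and 27.8 there, in the same order, whereas OsBZIP77 had 23.2 at the first and 35.8 at the second. On chromosome 1, from 11237413 to 11237709, also 96 bp apart, OsBZIP42 had 114 and 250, OsBZIP69 20.3 and 55.7, and OsBZIP77 41.1 and 22.9. In both groups OsBZIP77 was stronger at the member where OsBZIP42 was weaker. On chromosome 11, from 3303053 to 3303309, the members were 56 bp apart with 142 and 195 for OsBZIP42, 34.7 and 79.3 for OsBZIP69, and 30.4 and 26.6 for OsBZIP77. On chromosome 3, from 27323184 to 27323458, with a gap of 74 bp, OsBZIP42 had 121 and 177, OsBZIP69 had 45.7 and 44.3, and OsBZIP77 had 18.9 and 23.1. On chromosome 10, from 22486760 to 22487116, with a gap of 156 bp, the values were 91.5 and 183 for OsBZIP42, 46.5 and 39.5 for OsBZIP69, and 27.4 and 31.1 for OsBZIP77. The remaining group, on chromosome 12 with members 92 bp apart, lay outside the 5 and is given after its values were seen: OsBZIP42 had 55.2 and 169.8, OsBZIP69 45.5 and 159.5, and OsBZIP77 21.1 and 51.9, all in the same order. In 5 of the 6 groups 1 of the 2 other proteins ranked the members in the reverse order of OsBZIP42, and the other protein did not. With 2 proteins per group a reversal has 2 occasions, and some differences were small, such as 45.7 against 44.3. Over all groups with 2 carrying members, the order matched that of OsBZIP42 in 10 of 16 for OsBZIP69 and 10 of 14 for OsBZIP77. No repeat libraries give the spread of these values.

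**Figure D5:**
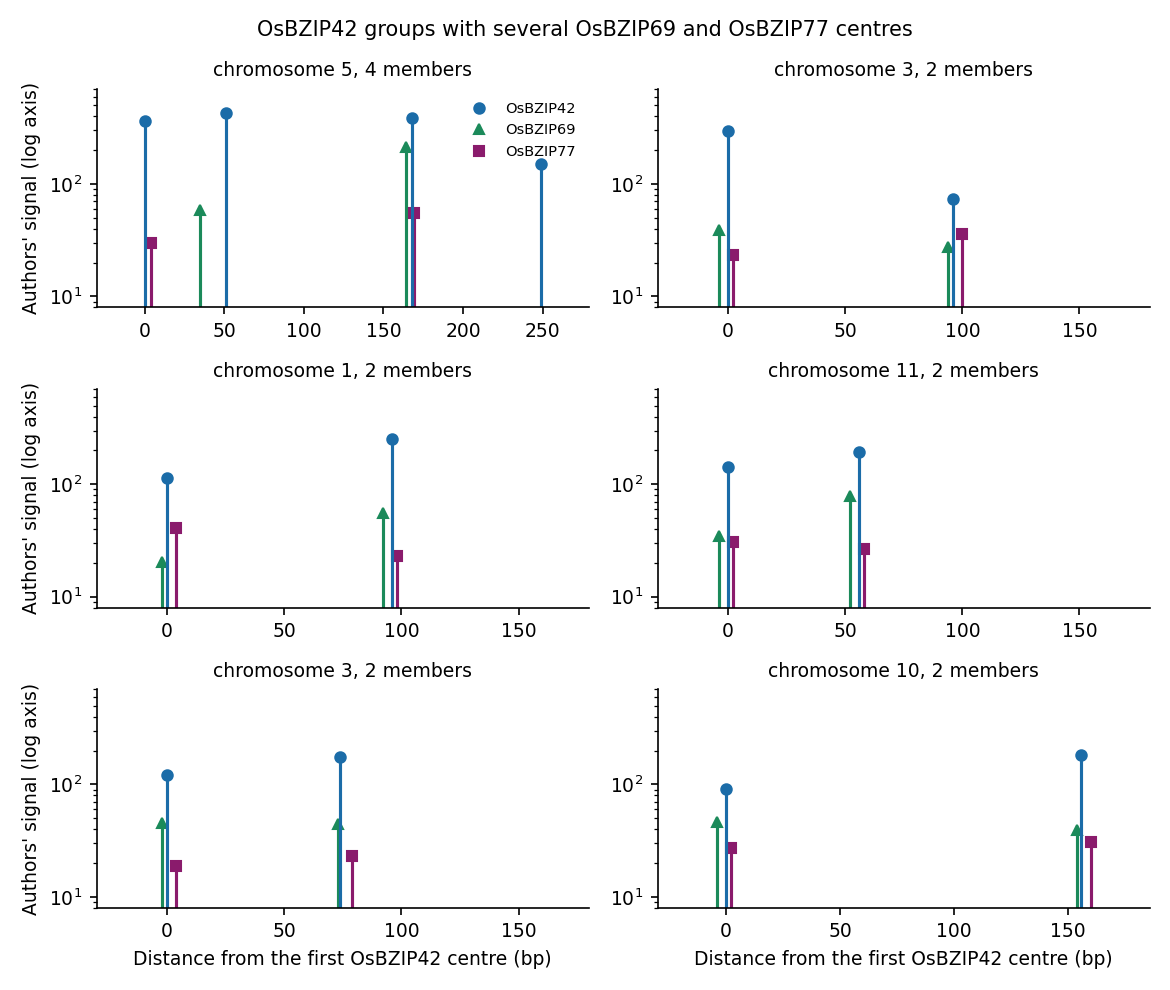
Signal (y axis, log scale) of OsBZIP42 (blue circles), OsBZIP69 (green triangles) and OsBZIP77 (purple squares) peaks by distance in bp from the first OsBZIP42 centre of the group (x axis), for the group with the highest summed signal (top left) and the 5 groups described. OsBZIP69 and OsBZIP77 are drawn 3 bp to the left and right of their positions so that the lines stay apart. In the pair on chromosome 3 with 299 and 73.4 for OsBZIP42, OsBZIP77 is higher at the second member.

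The groups with the highest summed signal showed the same mixture. The highest was the group of 4 on chromosome 5, from 13708622 to 13709071, with a sum of 1332 and members of 367, 425, 390 and 150 at gaps of 51, 117 and 81 bp. OsBZIP69 was carried only by the third member, with 215, and had a further centre with 59.1 that lay 13 bp from the strongest member. OsBZIP77 was carried by the first and the third, with 29.6 and 55.4. The next, on chromosome 6 from 1468871 to 1469217, had members of 476 and 303 with a gap of 146 bp, and the first carried OsBZIP69 with 17.1 and OsBZIP77 with 49.0. A further OsBZIP69 centre with 16.9 lay between its members. On chromosome 2, from 3637539 to 3637789, the 2 proteins parted: members 50 bp apart had 416 and 243, OsBZIP69 had 17.0 at the first and OsBZIP77 had 27.0 at the second. The group of 3 on chromosome 8, from 8714591 to 8714911, parted likewise, with 47.7, 248 and 261 for OsBZIP42, 62.0 for OsBZIP69 at the middle member and 33.0 for OsBZIP77 at the last. The pair on chromosome 9 from 17092453 to 17092713 was the least even of the leading 10, with 509 and 81.8, and OsBZIP69 had 144 and 39.2 at the same members.

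In the pair on chromosome 5 from 1923742 to 1924001, with 79.7 and 463, the stronger member carried OsBZIP69 with 98.0 and OsBZIP77 with 70.0. In the pair on chromosome 4 from 35169458 to 35169738, with 207 and 382, the stronger again carried both, with 26.0 and 35.8. On chromosome 5 from 1251003 to 1251262, members of 421 and 209 carried OsBZIP69 with 34.9 and 40.3, and the first carried OsBZIP77 with 45.8. A further OsBZIP77 centre with 32.2 lay at 1251182, near the second member at 1251162 but outside its 10 bp. On chromosome 5 from 23735055 to 23735380, members of 334 and 213 carried OsBZIP69 with 14.2 and 21.8, and the weaker carried OsBZIP77 with 20.7. A further OsBZIP77 centre with 13.3 lay at 23735067, before the first member at 23735155. In the group of 3 on chromosome 8 from 20276987 to 20277358, with 173, 320 and 123, the middle member carried OsBZIP69 with 18.9 and no member carried OsBZIP77. The 10 leading groups were chosen by summed signal, and carrying rises with signal. Single peaks in the top stratum, from a signal of 106 up, carried OsBZIP69 in 23.9% and OsBZIP77 in 35.3%. No single peaks as strong as these groups were set beside them. All 10 leading groups carried OsBZIP69 at some member and 9 carried OsBZIP77, against 12.4% and 18.2% of all 1796 groups of any strength. Groups close behind did not always do so: 1 with a sum of 537 carried OsBZIP77 alone, and 1 with a sum of 500 carried neither.

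The other 4 groups of 4 members were weaker. On chromosome 5 from 22452605 to 22453110 the signals were 72.9, 132, 53.0 and 37.1, and OsBZIP69 had 12.2 and 24.8 at the first and second members and OsBZIP77 had 25.6 at the second. On chromosome 2 from 32580747 to 32581347 they were 16.5, 23.7, 173 and 68.4, on chromosome 11 from 22489879 to 22490411 they were 19.0, 18.1, 63.2 and 27.7, and on chromosome 4 from 19014829 to 19015386 they were 19.4, 27.9, 25.2 and 22.4. None of these last groups carried either protein. The group on chromosome 4 was the most even of the 5, with members 107, 122 and 128 bp apart.

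Most groups stood without the other proteins: 1383 of 1796 had no OsBZIP69 or OsBZIP77 centre within 200 bp of any member (77.0%, 75.0 to 78.9). No share within 200 bp is given for single peaks, and the other lists are short, with 1107 and 2059 peaks against 28323. Absence was not particular to groups. Within 10 bp, 423 of 3689 clustered peaks carried either protein (11.5%, 10.5 to 12.5), against 1559 of 24634 single peaks (6.33%, 6.03 to 6.64). These shares are not matched for signal. The strongest group without another protein's centre within 200 bp lay on chromosome 10 from 22146725 to 22147035. Its signals were 347 and 24.9 with a gap of 110 bp. The pairs on chromosome 3 from 15128243 to 15128485 (105 and 235, gap 42 bp), on chromosome 4 from 26661367 to 26661612 (59.8 and 280, gap 45 bp) and on chromosome 12 from 3243708 to 3243979 (34.0 and 303, gap 71 bp) were also uneven. The pair on chromosome 8 from 25804038 to 25804272 was nearly even, with 168 and 162 at 34 bp. Their summed signals, from 330 to 371, lay in the range of the 5 groups that carried both proteins at 2 members, from 275 to 372.

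At the lower end of the spacing, 13 gaps measured 3 to 10 bp. The 3 closest pairs with the highest sums were all 3 bp apart and had almost equal members: 49.9 and 47.9 on chromosome 7 from 26796701 to 26796904, 46.6 and 47.4 on chromosome 8 from 4859179 to 4859382, and 36.6 and 36.4 on chromosome 7 from 5769317 to 5769520. The last of these carried OsBZIP69 with 13.0. At the upper end, the strongest pairs just inside the limit had signals of 51.0 and 191 at 200 bp on chromosome 10, 65.1 and 116 at 191 bp on chromosome 2, and 109 and 45.3 at 192 bp on chromosome 4. Just outside it stood pairs of 191 and 239 at 210 bp on chromosome 4, 211 and 50 at 208 bp on chromosome 9, and 99.4 and 63.1 at 204 bp on chromosome 1.

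Groups occurred on all 12 chromosomes in proportions close to those of the peaks. Chromosome 8 had the highest share of clustered peaks, 298 of 1994 (14.9%, 13.4 to 16.6), chromosome 2 had 423 of 2946 (14.4%, 13.1 to 15.7), and chromosome 4 had the lowest, 285 of 2465 (11.6%, 10.3 to 12.9). The intervals of the other 9 chromosomes included the 13.0% of the whole list. Per Mb up to the last peak there were between 3.72 groups on chromosome 11, where peaks numbered 63.7 per Mb, and 6.01 on chromosome 1, where they numbered 91.6. With each chromosome cut into 10 equal segments, segment 4 had the lowest share of clustered peaks, 9.90% (8.63 to 11.3), and segment 2 the highest, 14.9% (13.7 to 16.2). The outermost segments together had 13.3% (12.4 to 14.1), against 13.0% in the inner segments (12.5 to 13.4). The share followed the density of peaks. In the 122 whole 1 Mb intervals with the fewest OsBZIP42 peaks, 15 to 63 each, it was 10.1% (9.30 to 10.9). It was 13.3% (12.6 to 14.03) in the middle 122 intervals, of 64 to 87 peaks, and 14.3% (13.7 to 14.9) in the 122 richest, of 87 to 144. The counts of peaks include the clustered ones, so share and density are not independent of each other. The part of peak density in the number of groups was not tested.

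Of 366 whole 1 Mb intervals, 17 held no group, and the median was 5. The most, 15 groups, lay on chromosome 1 from 4 to 5 Mb, where 30 of 106 peaks were clustered. The interval from 1 to 2 Mb on chromosome 1, with 144 peaks, held 13. The nearest OsBZIP42 peak outside a group was 3676 bp away at the median, against 3136 bp for single peaks, and it lay within 1000 bp for 17.7% of groups (15.9 to 19.5), against 23.1% of single peaks (22.6 to 23.7). The HALO-GST control had 0 centres within 100 bp of a clustered peak (0 of 3689, an upper limit of 0.0813% from 3 counts of the total), against 3 of 24634 single peaks. Within 1000 bp it had 3 and 32.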

How the data were processed

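Each of the 4 libraries, 1 per protein and HALO-GST, was deposited as a peak list. The submitters' processing notes name Bowtie2 2.2.8 as aligner; which genome build was used is not given in the sources. The deposited names record calling with GEM, against a negative control for the bZIP lists and without one for HALO-GST; the OsBZIP77 name lacks the word for reticulocyte lysate. A word in these names is read as multiply mapped reads left out. The deposited lists give a signal, a score and −log10 p-values and q-values per peak, all by the authors; the q-values end at 0.01. Signal was used, q-values only to shorten lists, scores and p-values nowhere.

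Centres are the middles of the 201 bp intervals, 1-based. Groups were formed and compared in Python 3.11.15 with numpy 2.4.6, pandas 2.3.3 and scipy 1.17.1, after the code was tested on simulated lists. Intervals of differences over strata are normal approximations; those of medians are exact order-statistic intervals. Members, strata, lists and alternatives were chosen with earlier results of these data known. Named groups are the 10 with the highest summed signal, those of 4 or more, the 5 strongest with 2 members carrying both proteins, the 3 closest, the 3 strongest just inside and outside 200 bp, and the 5 strongest without another centre within 200 bp. No genome of the files' build was used here, so no sequence, motif or gene was assigned.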

Additional observations from a re-analysis of the deposited data

How the results depend on the processing

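Over 13 results, 105 alternatives were tried, 10 of them chosen after seeing the data; 81 stayed within the interval or 1.5 times the count reported, and 24 moved. Joining centres up to 100 or 550 bp apart gave 1996 and 6860 clustered peaks, and lists cut to the 50% of peaks with the lowest q-values gave 1762. At 100, 300 and 550 bp, clustered peaks carried OsBZIP69 in 8.12%, 5.59% and 4.75%. At 100 and 550 bp they carried OsBZIP77 in 11.5% and 7.54%. At 100 bp the carrying member was the stronger in 57.4% of pairs for OsBZIP69 and 51.9% for OsBZIP77, the dependence on the gap described above. The chromosome with the highest share was then chromosome 2 with 8.35%, and at 300 bp chromosome 2 with 18.5%. In the lists so cut, OsBZIP69 was carried by 7.95% of clustered peaks, its difference at equal signal was 3.12 points, the member at the lower coordinate was the stronger in 56.0% and the most frequent gap began at 41 bp. In bins of 5 bp that gap began at 51 bp, so no single spacing stands as preferred. A window of 50 bp gave 3.24% of single peaks for OsBZIP69, 6.30% for OsBZIP77 and 10.5% of clustered peaks for OsBZIP77, and 20 bp gave 5.84% of single peaks for OsBZIP77. Matching groups on summed signal gave 0.48 points for OsBZIP69 and -1.91 for OsBZIP77, and -1.80 for OsBZIP77 with no further OsBZIP42 peak within 550 bp. With single libraries, leaving out a replicate was impossible. No paired analysis was possible because the groups compared hold 1 sample each. Unknown depth limits any statement on centres missing from the shorter lists.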
